A study of Mus musculus with 4 samples.

Results

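Injured proximal tubule cells were taken here as cell barcodes that carried transcripts of the proximal tubule together with transcripts of Vcam1 or Havcr1. A barcode was a member when it held at least 2 UMIs (unique molecular identifiers, the counted transcripts) of Lrp2 and Slc34a1 together and at least 2 of Vcam1 and Havcr1 together. It also had to hold 0 UMIs of the leukocyte gene Ptprc, of the endothelial genes Pecam1 and Cdh5 and of the macrophage genes C1qa and C1qb. Of 50605 barcodes that passed the filters on UMIs, genes and mitochondrial share, 244 met this rule. The members were thus chosen by the measured UMIs of these 9 genes, whose levels are given as a description and were not tested.

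The cells came from kidneys of male C57BL/6 mice that were 19 months old and had received either the small molecule BPTES or the vehicle DMSO for 1 month. Each group comprised 2 libraries, and nothing in the labels says how many animals a library holds, so every p-value measures the spread between these libraries only. Kidneys were digested with liberase, sorted on CD45, and recombined at 20000 CD45-negative to 9000 CD45-positive cells before droplet capture (10x Genomics GEM-X 3' chemistry). The labels name no induced injury, and both groups share age, sex and strain.

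The proximal tubule reabsorbs most of the filtered sodium, phosphate, glucose, amino acids and albumin, through transporters of its brush border and the endocytic receptor megalin (Lrp2), and it lives on fatty acid oxidation rather than glycolysis. After damage its cells lose part of this program and switch on Havcr1, which encodes the phosphatidylserine receptor KIM-1. Cells that do not return to the mature state are known as failed-repair or adaptive cells, and Vcam1, an adhesion molecule for leukocytes, is their usual marker.

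The 4 libraries held 11686 to 13130 barcodes after filtering. Those with at least 2 UMIs of Lrp2 and Slc34a1 and 0 of Vcam1 and Havcr1 served as the other proximal tubule barcodes, 25832 in all and 5597 to 7189 per library. The rule places no leukocyte or endothelial limit on them, and 20.7% to 23.3% of them held a Ptprc UMI in each library. Leukocyte barcodes (at least 2 Ptprc UMIs) reached 2 UMIs of Lrp2 and Slc34a1 in 21.9% to 28.5% of cases, which gives the level of tubular RNA in barcodes of cells that do not make it. A second reference therefore applied the leukocyte, endothelial and macrophage limits to the other barcodes too (2922 to 4404 per library) and is called the leukocyte-free reference. 1 member barcode sequence, in DMSO replicate 1, also occurred in another library.

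Injured barcodes were fewer in both BPTES libraries than in either DMSO library. BPTES replicates 1 and 2 held 24 and 14 members, and DMSO replicates 1 and 2 held 91 and 115. Of the proximal tubule barcodes that passed the same limits at any Vcam1 and Havcr1 level, members made up 0.542% (exact 95% binomial interval 0.348 to 0.805, 4428 barcodes) and 0.315% (0.172 to 0.528, 4440 barcodes) under BPTES. Under DMSO they made up 2.39% (1.93 to 2.92, 3813 barcodes) and 3.67% (3.04 to 4.39, 3134 barcodes). The intervals of the groups did not overlap, and they cover counting error only.

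The mean share was 0.429% ± 0.160 (SD, n = 2) under BPTES and 3.03% ± 0.907 (SD, n = 2) under DMSO, a 7.06-fold difference. No test is given for this difference, because the rule itself used these UMIs and lower Vcam1 in the tubule under BPTES was known when it was drawn up. The groups remained apart when barcodes with any UMI of Col1a1, Col1a2, Col3a1, Dcn or Pdgfrb were left out of members and denominator (7.64-fold). They also remained apart under strict gates, which applied the leukocyte, endothelial and macrophage limits to both classes, allowed 0 stromal and 0 podocyte UMIs and asked for at least 10 UMIs of Lrp2 and Slc34a1 (9.34-fold).

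T cell barcodes were set beside the members as a yardstick for RNA from other cells or joined barcodes. Vcam1 or Havcr1 made by the T cells themselves was not told apart from such RNA. Of the T cell barcodes used here, 2 of 494 and 1 of 547 under BPTES held at least 2 Havcr1 UMIs. Under DMSO 0 of 424 and 2 of 410 did. Among T cell barcodes free of endothelial and C1q UMIs, 0.810% (exact 95% interval 0.221 to 2.06) and 0.366% (0.0443 to 1.31) carried at least 2 UMIs of Vcam1 and Havcr1 in the BPTES libraries, and 0.943% (0.258 to 2.40) and 0.976% (0.266 to 2.48) did so in the DMSO libraries. The median depth was 10475 to 11198 UMIs in these T cell barcodes and 14890 to 16967 in the gated proximal tubule barcodes. Thick ascending limb barcodes with 0 leukocyte and endothelial UMIs reached the same 2 UMIs in 1 of 214 and 0 of 146 cases under BPTES and 0 of 166 and 2 of 177 under DMSO (exact 95% intervals 0.0118 to 2.58%, 0 to 2.49%, 0 to 2.20% and 0.137 to 4.02%), at a median of 5251 to 9227 UMIs. The BPTES member shares were below those of the T cells and above those of the thick ascending limb in the same libraries, and the DMSO member shares were above every share of T cell and thick ascending limb barcodes. The depths differ between these sets of barcodes and their sizes are unequal, so the values are set side by side without a test. At 10 or more UMIs of the pair the members numbered 6 and 2 under BPTES and 31 and 42 under DMSO, against 0, 0, 0 and 1 T cell barcodes and 1, 0, 0 and 0 thick ascending limb barcodes in the same order of libraries.

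**Figure D1:**
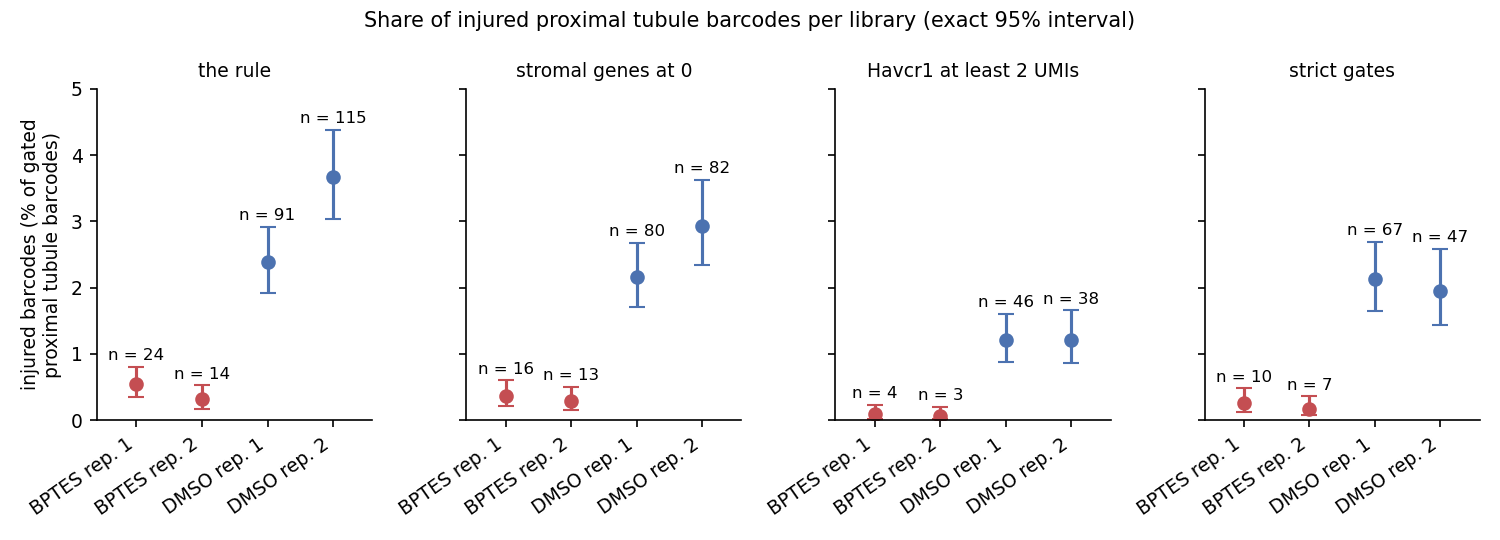
Share of gated proximal tubule barcodes that met the rule, in percent, for each library under 4 definitions of a member; points are libraries and bars are exact 95% binomial intervals. Both DMSO libraries lie above both BPTES libraries in each panel, from 7.06-fold with the rule to 15.3-fold with at least 2 Havcr1 UMIs, where the BPTES libraries held 4 and 3 members.

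Members were deeper than the other barcodes, and the treatment groups overlapped in depth. Their median depth was 35483 and 29614 UMIs per barcode in the BPTES group and 26869 and 34119 in the DMSO group, against 16034 to 18984 for the other proximal tubule barcodes. Barcodes were also thinned to 3000 UMIs, which left out 1669 and 1374 shallower ones under BPTES and 1601 and 1582 under DMSO. All limits of the rule were then applied to the thinned counts, so barcodes with a few leukocyte, endothelial or macrophage UMIs could enter. Of these, barcodes with at least 1 UMI of Vcam1 or Havcr1 numbered 14 and 9 of 5109 and 5019 under BPTES and 92 and 78 of 4715 and 4226 under DMSO. At the threshold itself, the BPTES libraries had 26 and 22 barcodes just outside (1 UMI of the pair) and 5 and 3 just inside (2 UMIs). The DMSO libraries had 94 and 97 just outside and 22 and 29 just inside. Mitochondrial transcripts made up a median of 4.54% and 7.51% of a member's UMIs under BPTES and 9.82% and 4.80% under DMSO, and 12.6%, 18.3%, 10.0% and 13.3% in the other proximal tubule barcodes of the same libraries.

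Most members carried one of the marker transcripts without the other. Havcr1 alone was found in 48 members, Vcam1 alone in 138 and both in 58. Havcr1 alone marked 4 and 3 members under BPTES and 28 and 13 under DMSO, Vcam1 alone marked 19 and 11 against 37 and 71, and both marked 1 and 0 against 26 and 31. Members with at least 2 Havcr1 UMIs numbered 4 and 3 under BPTES and 46 and 38 under DMSO, and their share differed 15.3-fold between the groups. The most UMIs in a single member were 144 of Vcam1 and 304 of Havcr1, both in DMSO replicate 2.

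The label was checked against the 16 genes of the proximal tubule identity list, none of which is in the rule, among them the cubilin gene Cubn, the inositol oxygenase gene Miox and the androgen-driven gene Kap. The summed identity level was 21420 and 23010 CPM (UMI counts scaled to a common library total) in members under BPTES and 37294 and 27291 CPM in members under DMSO. In the leukocyte-free reference it was 58932 and 56609 CPM and 55124 and 58991 CPM. The members as a whole carried the identity transcripts at a lower level in each library. Where 4 values follow each other below, they are those of BPTES replicates 1 and 2 and DMSO replicates 1 and 2.

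Barcode by barcode, the members were mixed. As a yardstick, the level that 95% of leukocyte barcodes did not exceed was taken in each library (226, 188, 115 and 162 identity UMIs per 10000 in BPTES replicates 1 and 2 and DMSO replicates 1 and 2). Of the 244 members, 96 (39.3%) were at or below it, 15 and 6 under BPTES and 17 and 58 under DMSO. For comparison, the median leukocyte barcode held 9.70, 7.99, 10.0 and 9.79 identity UMIs per 10000 in the same order, so a member under the level can still lie well above the typical leukocyte barcode, and the level itself differs between libraries. In the leukocyte-free reference 421 of 4378 and 317 of 4404 barcodes were at or below it under BPTES and 162 of 3628 and 210 of 2922 under DMSO. In DMSO replicates 1 and 2, which held most members, 1 of 28 and 4 of 13 members with Havcr1 alone were at or below the level, 10 of 37 and 39 of 71 with Vcam1 alone and 6 of 26 and 15 of 31 with both. In each of these libraries the share was lowest with Havcr1 alone. The median identity level was 471 UMIs per 10000 with Havcr1 alone, 176 with Vcam1 alone and 201 with both. The barcodes are therefore called members or injured barcodes here, without a statement that each is a proximal tubule cell.

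A subset of the Vcam1 barcodes was rich in fibroblast transcripts. The fibroblast and mural list, 12 genes including the collagen genes Col1a1, Col1a2 and Col3a1 and the decorin gene Dcn, reached at least 10 UMIs per 10000 in 35 members. Of these, 34 carried Vcam1 without Havcr1, 1 carried both and 0 carried Havcr1 alone, and 34 of the 35 were at or below the leukocyte level of identity genes. They numbered 8 and 1 under BPTES and 6 and 20 under DMSO. DMSO replicate 2 also held more stromal RNA outside the members. A UMI of Col1a1, Col1a2, Col3a1, Dcn or Pdgfrb was present in 2.24%, 1.25%, 2.65% and 10.1% of the leukocyte-free reference. The part of this library difference in the counts was not tested. Summed over all members, the fibroblast and mural list stood at 6736 and 2346 CPM under BPTES and 1355 and 1828 CPM under DMSO, against 22.7 and 20.9 CPM and 21.1 and 58.4 CPM in the leukocyte-free reference. Under the strict gates the members' level was 0 and 19 CPM under BPTES and 1.11 and 2.75 CPM under DMSO. Those gates themselves set Col1a1, Col1a2, Col3a1, Dcn and Pdgfrb to 0, so the fall of the list is in part fixed by the gate. Lum, Pdgfra, Acta2 and Postn, which are not in the gate, were also at 0 in all 4 libraries. The rest of the list, Rgs5, Tagln and Gucy1a1, is not in the gate either. These genes held all of the level that remained, 19 CPM in BPTES replicate 2. Strict gates left 10 and 7 members under BPTES and 67 and 47 under DMSO.

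**Figure D2:**
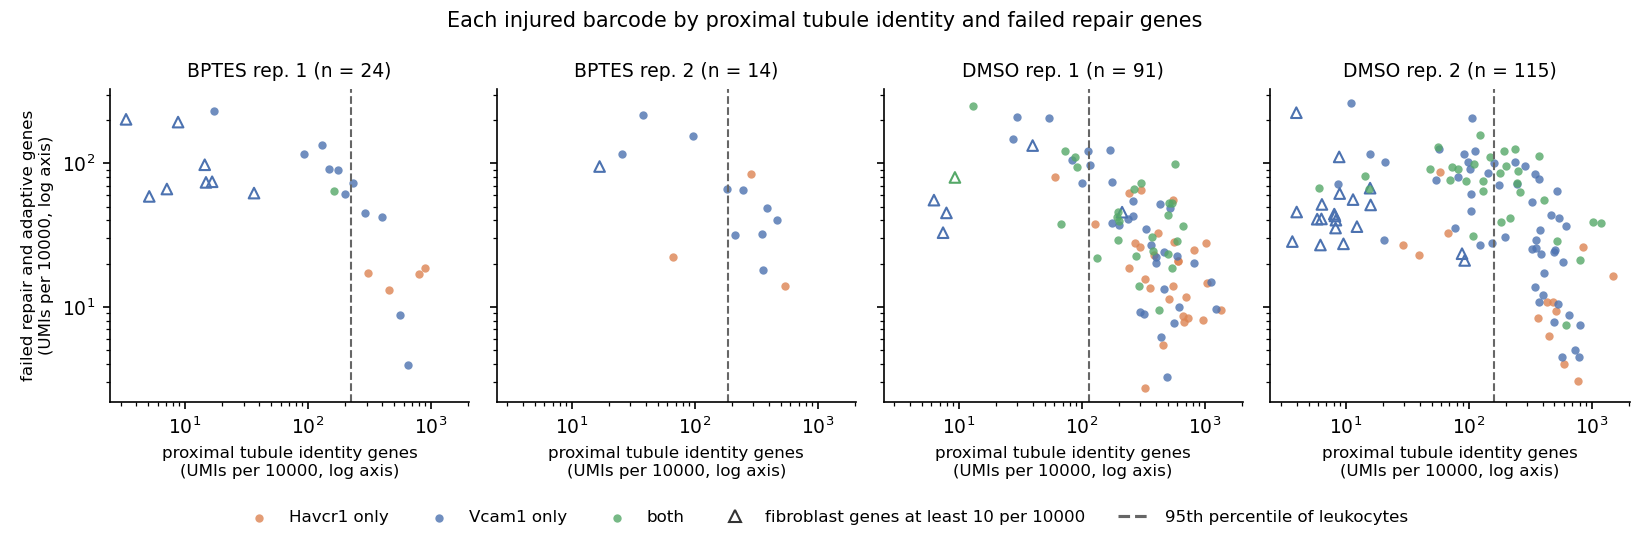
Proximal tubule identity genes against failed-repair genes in each member, both as UMIs per 10000 on log axes, coloured by the marker transcripts it carried; triangles are the 35 members with at least 10 fibroblast UMIs per 10000 and the dashed line is the leukocyte level of identity genes. Members with Havcr1 alone sit mostly to the right of the line, and members with Vcam1 reach far to the left of it.

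Parietal epithelium, the layer that lines Bowman's capsule, shares Vcam1 with failed-repair cells. The 7 genes of the parietal epithelium list, among them Cldn1, Pax2 and Wfdc2, summed to 1807 and 1619 CPM in members under BPTES and 974 and 1129 CPM under DMSO, against 91.2 and 98.1 CPM and 102 and 114 CPM in the leukocyte-free reference, with 0 of the 7 genes at 0 in any library. The level was still 1199 and 1717 CPM and 474 and 523 CPM under the strict gates, against 66.9 and 76.4 CPM and 71.6 and 70.4 CPM. This list shares Cp, Akap12 and Pax2 with the failed-repair list, and its part in the results below was not tested.

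Of the other cell types, the macrophage and monocyte list summed to 57.4 and 41.5 CPM under BPTES and 55.6 and 52.2 CPM under DMSO, against the 38.3 and 33.8 CPM and 51.1 and 56.8 CPM of the leukocyte-free reference. The podocyte list summed to 97.3 and 46.3 CPM and 43.2 and 56.7 CPM, against 14.8 and 9.06 CPM and 15.5 and 13.5 CPM in that reference. The endothelium list stood at 181 and 31.7 CPM and 57.1 and 142 CPM against 9.76 and 6.25 CPM and 11.4 and 14.7 CPM, the highest value being that of BPTES replicate 1. Both lists were thus above the reference in each library, and their part in the results was not tested. Predicted doublets, the barcodes with the highest Scrublet scores, made up 4 of 24, 2 of 14, 5 of 91 and 7 of 115 members. In the leukocyte-free reference they were 88 of 4378, 52 of 4404, 65 of 3628 and 59 of 2922 barcodes. With predicted doublets left out, the member share differed 7.92-fold between the groups. The thick ascending limb list was at 176 and 127 CPM and 197 and 388 CPM against 452 and 440.3 CPM and 515 and 477 CPM. The median member held 3.47 and 3.94 UMIs per 10000 of the B and plasma list under BPTES and 0.693 and 0.671 under DMSO. The cause of this difference between the groups was not tested. In the test described below, 0 of the 7 B and plasma genes tested were higher in members than in the leukocyte-free reference. Of the same 7 genes, 4 were lower (over all genes, 18.2% were higher and 18.1% lower).

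Against the other proximal tubule barcodes of the same libraries, 4899 of 16837 genes differed in the members (29.1%; edgeR quasi-likelihood test with library as a block, Benjamini-Hochberg adjusted p under 0.05). Of these, 2136 were higher (12.7%) and 2763 lower (16.4%). Against the leukocyte-free reference, 5309 of 14621 genes differed (36.3%), 2661 higher (18.2%) and 2648 lower (18.1%). With stromal genes at 0 in both classes it was 4098 of 16243 genes (25.2%), 1534 higher (9.44%) and 2564 lower (15.8%). Under the strict gates, where BPTES replicate 2 had fewer than 10 members and did not enter, 2004 of 13500 genes differed (14.8%), 971 higher (7.19%) and 1033 lower (7.65%). The median gene was at a log2 fold change of -0.09, -0.05 and -0.03 with the rule's reference, the leukocyte-free one and the strict gates. Counts of the lists below are read against these backgrounds, and all fold changes are injured over other on the log2 scale.

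The genes with the largest rises and falls in the first comparison are known from other cell types. The 12 largest rises were Dcn, Col3a1, Col1a2, Col1a1, Loxl1, Cyp1b1, Col6a1, Serping1, Cygb, Tnc, Mgp and Pdgfra, most of them genes of fibroblasts and their matrix. Dcn stood at 2340 and 201 CPM in members under BPTES and 574 and 224 CPM in those under DMSO, against 0.757, 0.547, 1.80 and 2.85 CPM (a rise of 8.58, SE 1.39, edgeR adjusted p 0.0274). Its UMIs came from 38 members. Dcn did not pass when BPTES replicate 2 or either DMSO library was left out (8.59 to 9.45, adjusted p 0.0553 to 0.122), and 11 of the 12 rises lost their call in at least 1 such fit, all but Tnc. The 12 largest falls were Iglc3, Inpp5d, Iglc1, Ighg2c, Jchain, Mir142hg, Dock2, Cd86, Igha, Syk, S100a8 and Igkc, genes of plasma cells and other leukocytes. Of these 12 only Iglc1 lost its call when a library was left out. The gate on members leaves out barcodes with Ptprc UMIs, which the rule's reference keeps, but it holds no immunoglobulin gene. Members still carried such transcripts, and the B and plasma list had a UMI in 24 of 24, 14 of 14, 76 of 91 and 107 of 115 of them. For this reason the groups below are given for the rule's comparison, for the leukocyte-free reference and for the strict gates in turn.

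Failed-repair genes were higher in the members. Of 29 tested failed repair and adaptive tubule genes, 25 rose and 1 fell, with a median log2 fold change of 2.67. Against the leukocyte-free reference 24 rose and 0 fell (median 3.32), and under the strict gates 18 rose and 0 fell (median 2.88). The summed failed repair and adaptive tubule level was 8197 and 7397 CPM in members under BPTES and 5194 and 6185 CPM under DMSO, against 1019 and 970.3 CPM and 1020 and 1076 CPM in the leukocyte-free reference. Within the members, the median failed-repair level was 90.1, 106, 106 and 66.6 UMIs per 10000 in those at or below the leukocyte level of identity genes and 17.3, 36.2, 24.2 and 28.6 in those above it. Members with more identity RNA were thus the lower ones in all 4 libraries.

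Cdh6, a cadherin of the developing nephron, was present at 74 and 125 CPM in the members of the BPTES libraries and 216 and 180.3 CPM in those of the DMSO libraries. In the other proximal tubule barcodes it stood at 2.03, 1.51, 1.27 and 4.88 CPM, so that no library of one class reached any library of the other. Its fold change was 6.03 on the log2 scale (SE 0.58, edgeR adjusted p 0.00407) and 4.0 under the strict gates (adjusted p 3.5e-08). Dcdc2a, which encodes a doublecortin-domain protein, stood at 149, 227, 159 and 249 CPM in members and at 5.63, 4.26, 11.3 and 23.3 CPM in the others (4.36, edgeR adjusted p 0.00721). Its value under the strict gates was 3.6, which did not pass (adjusted p 0.0895), and the call of Dcdc2a also fell away when BPTES replicate 1 (4.22, adjusted p 0.0740) or DMSO replicate 1 (4.58, 0.0666) was left out. Il34, a cytokine that sustains macrophages through their Csf1 receptor, was at 100.1, 203, 215 and 187 CPM in members and 13.9, 19.9, 23.5 and 31.4 CPM in the others. On the log2 scale it rose by 2.98 (SE 0.15, edgeR adjusted p 3.7e-08), and under the strict gates by 2.98.

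Ceruloplasmin (Cp), a copper-carrying ferroxidase, was at 958 and 943 CPM in members under BPTES and 551 and 585 CPM under DMSO, while the others held 6.46, 5.97, 8.65 and 16.9 CPM. The classes did not overlap, and the log2 fold change was 6.4 (SE 0.59, edgeR adjusted p 0.00395). Under the strict gates the value was 6.1 and did not pass (adjusted p 0.120), nor did Cp pass when DMSO replicate 1 was left out (6.56, adjusted p 0.0506). Complement C3 stood at 1164, 956, 453 and 309.7 CPM in members, with both BPTES libraries above both DMSO libraries as for Cp, and at 7.92, 8.41, 19.2 and 22.7 CPM in the others (5.58, edgeR adjusted p 0.0330). It did not pass against the leukocyte-free reference (5.93, adjusted p 0.0538) or under the strict gates (4.77, adjusted p 0.0538). The call of C3 was lost whichever library was left out (4.99 to 6.23, adjusted p 0.0641 to 0.114).

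UMIs of the chemokines Cxcl1 and Ccl2 were found in few members. The neutrophil attractant Cxcl1 had UMIs in 42 of the 244 and stood at 9.38, 51.9, 29.2 and 45.7 CPM, against 0.359, 0.633, 2.72 and 1.02 CPM in the others (4.94, edgeR adjusted p 0.00117). Under the strict gates its fold change was 4.66 (adjusted p 9.3e-12), and when BPTES replicate 1 was left out it was 4.93 and did not pass (adjusted p 0.0661). The monocyte attractant Ccl2 had UMIs in 21 members and stood at 63.6, 49.7, 5.47 and 63.3 CPM against 5.47, 3.55, 11.3 and 17.9 CPM. DMSO replicate 1 lay below both DMSO libraries of the reference, and the difference did not pass (2.11, edgeR adjusted p 0.256) unless that library was left out (2.94, adjusted p 0.0288). Against the leukocyte-free reference, where Ccl2 was at 0.0901, 0.166, 0.617 and 1.02 CPM, it did (6.41, adjusted p 0.0396), and under the strict gates it did not (3.94, adjusted p 0.134).

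Genes of acute tubular injury rose in all 3 comparisons as well. Of 30 tested, 16 rose and 0 fell (median 1.46). Against the leukocyte-free reference 22 of 29 rose and 0 fell (median 2.44), and under the strict gates 21 of 27 rose and 0 fell (median 2.02). Osteopontin (Spp1), a secreted glycoprotein of injured tubules, stood at 3041 and 6917 CPM in members under BPTES and 7908 and 6613 CPM under DMSO, and at 594, 733, 802 and 1207 CPM in the others. Every library of members was above every library of the others, with BPTES replicate 1 the lowest of the members. On the log2 scale the rise was 2.84 (SE 0.20, edgeR adjusted p 1.1e-06) and 2.3 under the strict gates (adjusted p 3.6e-05).

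The transcription factors Sox4 and Sox9, which mark regenerating tubule, rose in the members too. Sox4 was at 84.4, 197, 84.3 and 135 CPM in members and 6.32, 6.15, 7.84 and 10.9 CPM in the others (3.92, edgeR adjusted p 1.0e-04; strict gates 4.23, adjusted p 9.3e-05). Sox9 was at 35.4, 80.0, 35 and 81.4 CPM in members and 0.431, 0.547, 1.85 and 4.38 CPM in the others (5.28, edgeR adjusted p 0.0130; strict gates 4.36, adjusted p 1.3e-06). Sox9 did not pass when BPTES replicate 1 (4.90, adjusted p 0.0862) or DMSO replicate 1 (5.74, 0.0729) was left out. In the others the Sox9 level was higher in both DMSO libraries than in both BPTES libraries. The members showed no such order, since each group held a low and a high library.

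Among the simple keratins of the cytoskeleton, Krt8 stood at 88.6, 208, 92.3 and 171 CPM against 44.7, 43.8, 50.1 and 48.9 CPM (1.48, edgeR adjusted p 0.00393; strict gates 0.89, adjusted p 3.7e-05). Its partner Krt18 stood at 15.6, 51.9, 6.57 and 34.9 CPM against 3.32, 5.14, 4.78 and 7.52 CPM (2.08, edgeR adjusted p 0.00877; strict gates 2.71, adjusted p 0.00231) and did not pass when BPTES replicate 1 was left out (2.02, adjusted p 0.118). Krt20 had UMIs in 30 members, 0 of them in BPTES replicate 1, and rose by 5.31 (edgeR adjusted p 2.2e-04). It was too sparse to be tested under the strict gates.

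For some injury genes the call depended on the gates or the reference. Lipocalin-2 (Lcn2), the urinary injury marker NGAL, stood at 4.17, 23.8, 9.48 and 24.2 CPM in members and 5.15, 6.93, 10.8 and 13.4 CPM in the rule's reference (0.56, edgeR adjusted p 0.237). In the leukocyte-free reference it stood at 1.34, 0.754, 7.65 and 5.78 CPM (1.97, adjusted p 0.122), and under the strict gates the difference passed (3.25, adjusted p 4.6e-04). Cd24a, a surface glycoprotein of progenitor-like tubule cells, gave a value of about 0 (adjusted p 0.997) with the rule's reference and 1.22 (adjusted p 0.0214) with the leukocyte-free one. Clusterin (Clu), a secreted chaperone, was at 43.8, 658, 85 and 77.2 CPM in members, and BPTES replicate 2 alone held the high value. Its fold change of 0.55 did not pass (edgeR adjusted p 0.726), was -0.23 without that library and was 1.65 under the strict gates, which also leave that library out (adjusted p 5.5e-07).

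**Figure D3:**
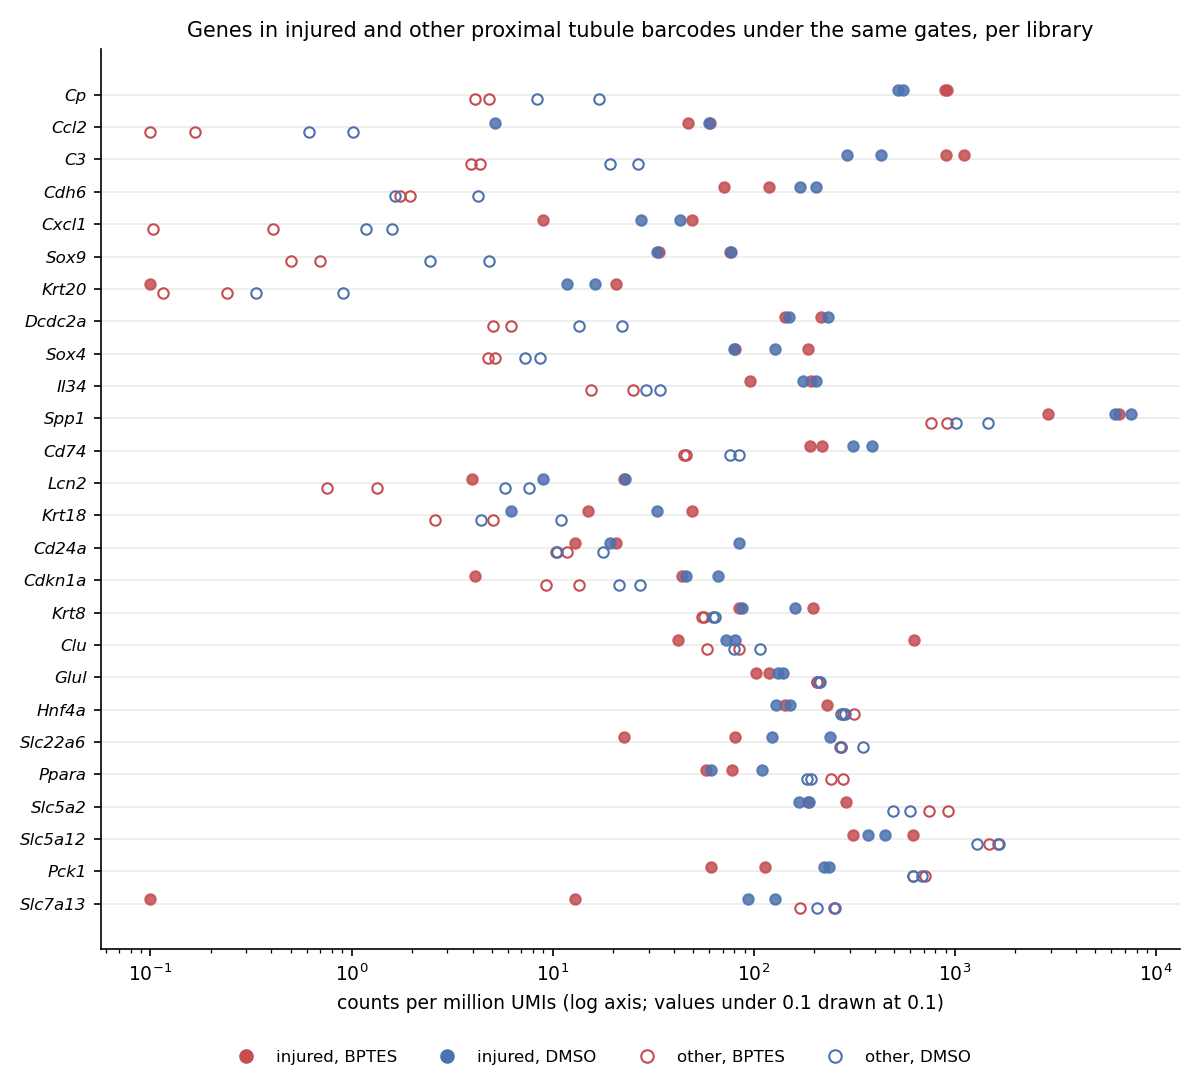
Levels of fixed genes in CPM on a log axis, injured barcodes (filled) against the leukocyte-free reference (open), 1 point per library, BPTES in red and DMSO in blue, with values under 0.1 drawn at 0.1. Failed-repair and injury genes such as Cp, Cdh6, Sox4, Sox9 and Il34 are higher in all 4 libraries of injured barcodes, and Slc5a2, Slc5a12, Pck1 and Ppara are lower in all 4.

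The mature program was reduced but still present. Of the 16 proximal tubule identity genes 0 rose and 13 fell, with a median of -1.15. Against the leukocyte-free reference 15 fell (median -1.60), and under the strict gates, which keep barcodes with more tubular RNA, 13 fell (median -0.81). Gatm, the first enzyme of creatine synthesis, was at 172, 186, 367 and 392 CPM in members and 1507, 1757, 1528 and 1519 CPM in the others, with no overlap (-2.56, edgeR adjusted p 4.2e-04; strict gates -1.79, adjusted p 1.4e-05). Miox was at 467, 407, 1048 and 871 CPM against 2769, 2269, 3056 and 2809 CPM (-2.06, edgeR adjusted p 2.3e-05; strict gates -1.4, adjusted p 2.1e-08). Kap did not pass (-1.51, adjusted p 0.298), and its level in members ran from 802 CPM in BPTES replicate 2 to 12877 CPM in DMSO replicate 1.

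Of the 44 genes listed as brush border transporters and peptidases, 16 fell and 4 rose (median -0.81). The list also holds transporters of the basolateral membrane, such as Slc22a6 and Slc4a4. With the leukocyte-free reference 23 fell and 1 rose (median -1.17), and under the strict gates 18 fell and 4 rose (median -0.45). The glucose transporter Slc5a2 (SGLT2) of the early tubule was at 195, 303, 198 and 178 CPM in members and 566, 728, 381 and 437 CPM in the others, and all 4 libraries of members lay below (-1.26, edgeR adjusted p 1.5e-05; strict gates -1.08, adjusted p 3.8e-08). The amino acid transporter Slc6a19 fell by 1.66 on the log2 scale and the phosphate transporter Slc34a3 by 2.51 (edgeR adjusted p 1.1e-06 and 3.6e-06). The lactate transporter Slc5a12 fell by 1.46 (edgeR adjusted p 4.4e-05) but did not pass under the strict gates (-1.44, adjusted p 0.269).

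Not every gene of the transporter and peptidase list fell. The peptidase Mme (neprilysin) rose, with 85.5, 102, 98.9 and 75.5 CPM in members against 19.8, 19.5, 22.2 and 24.3 CPM in the others (2.05, edgeR adjusted p 8.0e-07; strict gates 1.27, adjusted p 8.6e-07). The basolateral organic anion transporter Slc22a6 (OAT1) ranged from 23.8 CPM in BPTES replicate 2 to 253 CPM in DMSO replicate 1 and did not pass (-1.14, edgeR adjusted p 0.247). Slc7a13, an amino acid transporter of the S3 segment, was at 13.6, 0, 135 and 98.7 CPM and did not pass either (-1.85, adjusted p 0.268). By segment, 8 of 9 S1-S2 markers fell and 0 rose with the rule's reference (median -1.26), 8 fell with the leukocyte-free one (median -1.72) and 7 under the strict gates (median -1.04). Of 10 S3 markers 3 fell and 2 rose (median -1.04), 5 fell and 0 rose (median -1.35), and 2 fell and 2 rose (median -0.47) in the same order, and the difference between segments was not tested.

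Transcription factors of the mature state were lower in members too. Hnf4a stood at 149, 242, 136 and 161 CPM in members against 223, 254, 223 and 214 CPM, and BPTES replicate 2 lay among the others (-0.45, edgeR adjusted p 0.0226; strict gates -0.51, adjusted p 0.0126). Hnf4a did not pass when either DMSO library was left out (-0.36 and -0.46, adjusted p 0.0969 and 0.0644). Ppara, the receptor that drives fatty acid oxidation, stood at 60.5, 82.2, 116 and 65.2 CPM against 195, 228, 157 and 157 CPM without overlap (-1.18, edgeR adjusted p 0.00148; strict gates -0.76, adjusted p 2.0e-04). Of the 26 tubule transcription factors, 11 rose and 8 fell, against the leukocyte-free reference 12 rose and 8 fell, and under the strict gates 10 rose and 6 fell. Foxj1, known from ciliated cells, had UMIs in 34 members and rose by 6.5 (edgeR adjusted p 3.0e-06; strict gates 7.19, adjusted p 1.2e-06), from 0.0979, 0.137, 0.104 and 0.126 CPM to 14.6, 19.5, 4.38 and 10.3 CPM.

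Genes of energy metabolism were mostly lower in members. Of 37 fatty acid oxidation genes 23 fell and 1 rose (median -0.65), against the leukocyte-free reference 29 fell and 1 rose (median -1.02), and under the strict gates 20 fell and 1 rose (median -0.51). Acaa2, the thiolase of the last mitochondrial step, was at 80.3, 43.3, 107 and 99.5 CPM in members and 317, 302, 336 and 349.6 CPM in the others (-1.98, edgeR adjusted p 4.1e-06; strict gates -1.74, adjusted p 4.5e-10). The gene that rose was Pdk4, the kinase that holds pyruvate dehydrogenase off, at 40.7, 26, 68.9 and 82.1 CPM against 12.3, 4.15, 18.8 and 29.2 CPM (1.82, edgeR adjusted p 1.2e-05; strict gates 1.62, adjusted p 3.3e-10).

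Of 30 respiratory chain genes of the nuclear genome 29 fell and 0 rose (median -0.63), against the leukocyte-free reference 30 fell (median -1.01), and under the strict gates 26 fell and 0 rose (median -0.53). Sdhb, a subunit of succinate dehydrogenase, fell by 0.99 (edgeR adjusted p 2.5e-04). Gluconeogenesis, which the proximal tubule shares with the liver, had 8 of 9 genes lower and 0 higher (median -1.04), 8 lower and 1 higher, Pck2, against the leukocyte-free reference (median -1.49), and 7 lower and 0 higher under the strict gates (median -0.94). Fbp1 was at 309.6, 266, 617 and 539.6 CPM in members and 1320, 1311, 1464 and 1590 CPM in the others (-1.78, edgeR adjusted p 2.6e-05). Pck1 was at 119, 64.9, 237 and 250.3 CPM against 548, 496, 494 and 541 CPM (-1.72, edgeR adjusted p 0.0268), with no pass under the strict gates (-1.06, adjusted p 0.271) or when BPTES replicate 1 (-1.54, 0.184) or DMSO replicate 1 (-1.98, 0.0685) was left out. Of 16 glycolysis genes 5 fell and 0 rose with the rule's reference. Of 15 against the leukocyte-free one 6 fell and 4 rose (Hk1, Hk2, Pfkp and Pkm, named, like Pck2, after their values were seen), and of 14 under the strict gates 2 fell and 1 rose. Of 18 oxidative stress genes 11 fell and 2 rose (median -0.55), 13 fell and 1 rose against the leukocyte-free reference (median -0.89), and 8 fell and 1 rose under the strict gates (median -0.27).

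Glutamine and glutamate genes moved in both directions. Of 29 tested 7 rose and 8 fell (median -0.28), of 28 against the leukocyte-free reference 10 rose and 13 fell (median -0.47), and under the strict gates 7 rose and 5 fell (median -0.13). Glutamine synthetase (Glul) was at 107, 125, 148 and 139.7 CPM against 172, 176, 177 and 173 CPM and fell by 0.42 (edgeR adjusted p 0.0231; strict gates -0.6, adjusted p 0.00409), with no pass when BPTES replicate 1 (-0.34, 0.0933) or DMSO replicate 2 (-0.47, 0.0626) was left out. Asparagine synthetase (Asns) rose by 1.84 (edgeR adjusted p 0.00722; strict gates 2.5, adjusted p 0.00472), with UMIs in 42 members and no pass when DMSO replicate 1 was left out (1.38, adjusted p 0.104), and the CTP synthase gene Ctps by 1.47 (adjusted p 6.7e-05). Proline dehydrogenase (Prodh) fell by 1.34 (edgeR adjusted p 3.2e-05) and glutamate dehydrogenase (Glud1) by 0.66 (adjusted p 8.3e-04).

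Inflammatory groups depended on the reference, and the rule's reference holds barcodes with leukocyte transcripts while the members hold 0 Ptprc UMIs. Of 22 NF-kB and inflammatory genes 7 rose and 6 fell with the rule's reference (median 0.47). Against the leukocyte-free reference 16 of 21 rose and 0 fell (median 2.65), and under the strict gates 9 of 17 rose and 0 fell (median 1.52). Nfkbia, the inhibitor and target of NF-kB, was at 109, 160.2, 125 and 157 CPM in members and 26, 26.2, 38.4 and 35.2 CPM in the leukocyte-free reference (2.12, edgeR adjusted p 5.0e-06; strict gates 1.75, adjusted p 5.1e-13; rule's reference 0.19, adjusted p 0.367). Members lay above the leukocyte-free reference in every library.

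Complement and antigen presentation behaved alike. Of 20 genes 6 rose and 8 fell with the rule's reference (median -0.17), 14 rose and 0 fell with the leukocyte-free one (median 1.72), and 13 rose and 0 fell under the strict gates (median 1.61). B2m, the light chain of MHC class I, was at 836, 787, 650.4 and 769 CPM in members and 171, 212, 209 and 251 CPM in the leukocyte-free reference (1.86, edgeR adjusted p 9.7e-06). With the rule's reference its fold change was 0.15 and did not pass, and under the strict gates it was 1.52 and passed. The MHC class II invariant chain Cd74 changed sign. It stood at 191, 218, 312 and 389 CPM in members, 45.9, 44.9, 75.8 and 84.7 CPM in the leukocyte-free reference (2.14, edgeR adjusted p 1.2e-06) and 1881, 1935, 2330 and 2296 CPM in the rule's reference (-2.89, adjusted p 6.1e-08). The strict gates gave 2.71 (adjusted p 7.5e-22), and there the macrophage and monocyte list stood at 23.7, 33.2, 44.8 and 44.5 CPM in members against 36.6, 32.9, 49.3 and 55.6 CPM in the reference. Of 21 interferon response genes 3 rose and 2 fell with the rule's reference, 12 of 20 rose and 0 fell with the leukocyte-free one (median 2.29), and 5 rose and 0 fell under the strict gates (median 0.72).

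Extracellular matrix and TGF-beta genes rose in 18 of 24 cases with 2 lower (median 2.31), in 21 of 24 with 2 lower against the leukocyte-free reference (median 3.35), and in 9 of 21 with 2 lower under the strict gates (median 0.94). The strict gates leave out barcodes with any UMI of Col1a1, Col1a2, Col3a1, Dcn or Pdgfrb. None of these genes is in the extracellular matrix and TGF-beta list. Epithelial adhesion and junction genes rose in 14 of 21 with 1 lower (median 0.90), in 11 of 21 with 2 lower against the leukocyte-free reference (median 0.76), and in 10 of 20 with 1 lower under the strict gates (median 0.80). The tight junction gene Cldn1, also a parietal marker, was at 90.7, 106, 65.3 and 79.1 CPM in members against 10.2, 10.3, 10.5 and 10.2 CPM (3.01, edgeR adjusted p 4.8e-08; strict gates 2.5, adjusted p 1.4e-05). The integrin subunit gene Itgb1 rose by 1.18 (edgeR adjusted p 1.8e-05; strict gates 0.95, adjusted p 3.8e-06).

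Senescence and p53 genes rose in 7 of 24 cases with 1 lower (median 0.22), in 11 of 23 with 1 lower against the leukocyte-free reference (median 0.95), and in 7 of 21 with 0 lower under the strict gates (median 0.31). Cdkn1a, the p53 target that arrests the cell cycle, was at 43.8, 4.11, 46.3 and 66.7 CPM in members and 13.6, 9.26, 27.3 and 21.4 CPM in the leukocyte-free reference (1.15, edgeR adjusted p 0.0284), with BPTES replicate 2 below every reference library. It did not pass with the rule's reference (0.2, adjusted p 0.704). Of 24 cell cycle genes 1 rose and 7 fell, against the leukocyte-free reference 2 rose and 1 fell of 22, and under the strict gates 1 rose and 1 fell of 22. Of 19 immediate early and heat shock genes, which also respond to tissue digestion, 2 rose and 3 fell with the rule's reference. That is near the shares over all genes (12.7% higher, 16.4% lower). Against the leukocyte-free reference 13 rose and 2 fell (median 1.82), and under the strict gates 12 rose and 0 fell (median 1.35).

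**Figure D4:**
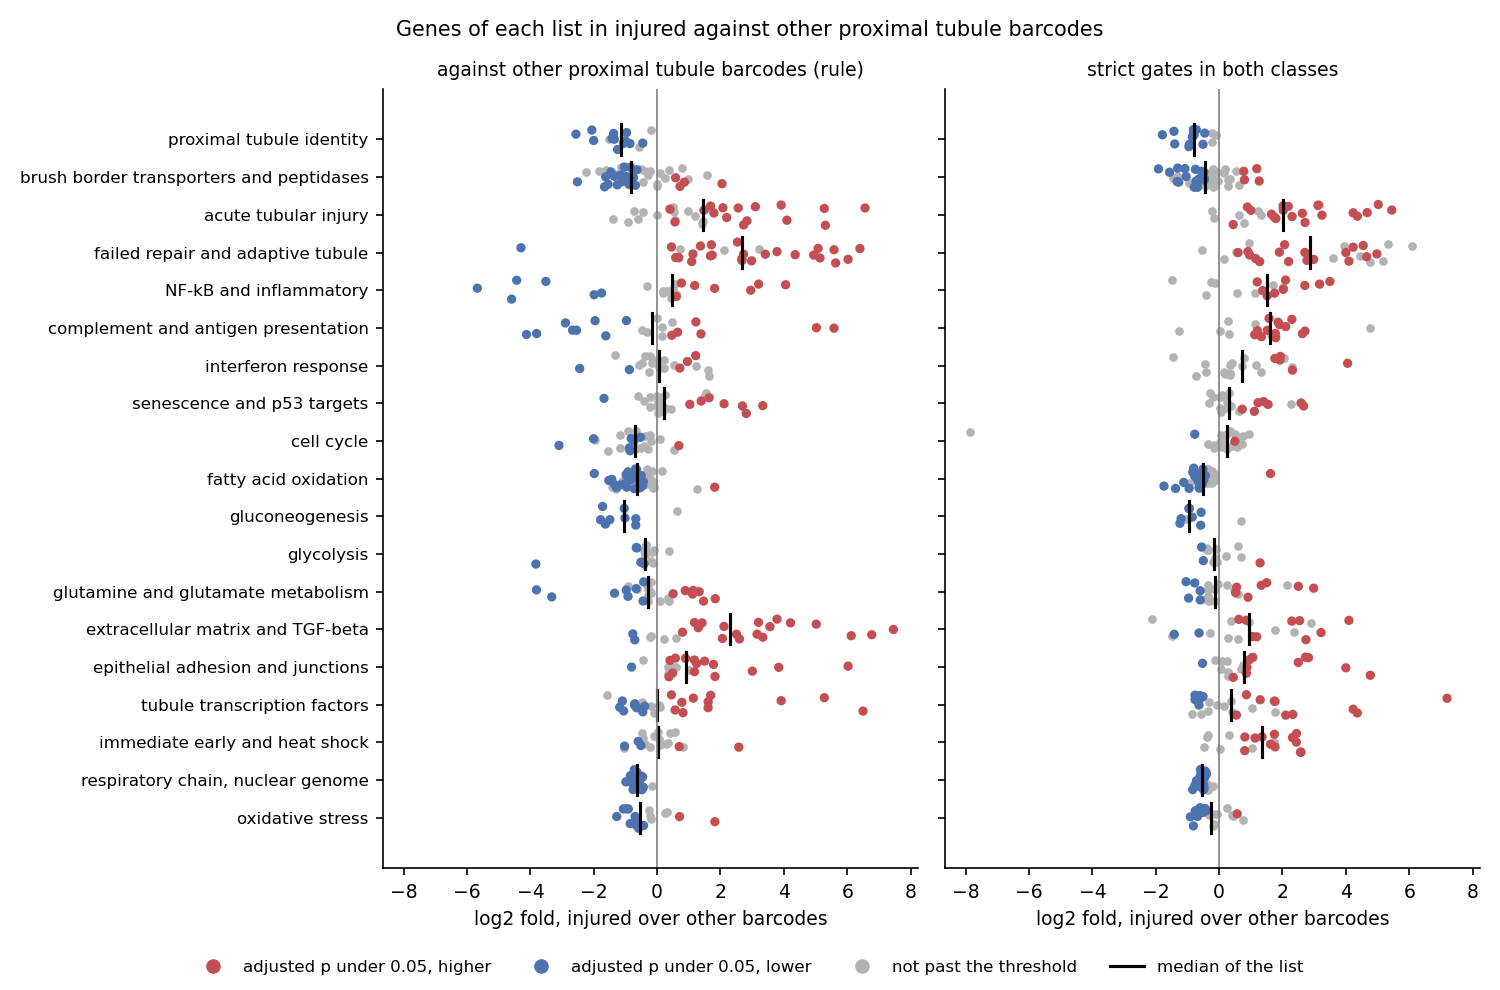
Log2 fold change of each tested gene, injured over other proximal tubule barcodes, in 19 gene lists, with the rule's reference and under the strict gates; red and blue genes passed as higher or lower, grey genes did not, and the black bar is the list's median. The medians of the failed-repair and acute injury lists lie above 0 on both sides and those of the respiratory chain and gluconeogenesis lists below 0, while the medians of the inflammatory lists are higher under the strict gates.

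Members with Havcr1 alone and members with Vcam1 are set side by side here without a test, because only the 2 DMSO libraries held at least 10 of each kind and the design asked for 3. Cp was at 81.5 and 2.03 CPM in the Havcr1-only members of DMSO replicates 1 and 2, 837 and 786 CPM in the Vcam1-only members and 662 and 655 CPM in those with both. Cdh6 was at 2.59 and 2.03 CPM, 466 and 189.7 CPM and 82.4 and 281 CPM in the same order, and C3 at 138 and 50.6 CPM, 578 and 347 CPM and 636 and 438 CPM. In both libraries these failed-repair genes were thus lowest in the members that carried Havcr1 alone. The kinds also differed in marker UMIs. Medians were 4 and 2 Havcr1 UMIs with Havcr1 alone and 3 and 4 Vcam1 UMIs with Vcam1 alone. Members with both held medians of 5 and 15 Vcam1 UMIs and 4.5 and 6 Havcr1 UMIs. The part of these counts in the gene levels was not tested. The Havcr1-only sums held 772706 and 493597 UMIs in all, so their values of a few CPM rest on very few UMIs. Spp1 did not follow this order, at 8856 and 4830 CPM with Havcr1 alone, 6715 and 3950 CPM with Vcam1 alone and 9589 and 13490 CPM with both.

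Mature transcripts ran the other way. Kap was at 26959 and 29394 CPM in Havcr1-only members, 6327 and 2508 CPM in Vcam1-only members and 9684 and 6762 CPM in those with both. The summed proximal tubule identity list was at 57673 and 59636 CPM, 28045 and 22426 CPM and 30319 and 25066 CPM in that order, with Havcr1-only members close to the leukocyte-free reference. The fatty acid oxidation list summed to 6643 and 7994 CPM, 4622 and 3518 CPM and 4165 and 4258 CPM, and NF-kB and inflammatory genes to 314 and 486 CPM, 853 and 1078 CPM and 1017 and 1283 CPM. The fibroblast and mural list was at 2.59 and 4.05 CPM, 2013 and 3370 CPM and 1753 and 20.5 CPM in the same order, and a single barcode of DMSO replicate 1, with 285 fibroblast UMIs per 10000, held the highest level among its 26 members with both transcripts, the next being at 0.842. The part of this list in the values above was not tested.

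**Figure D5:**
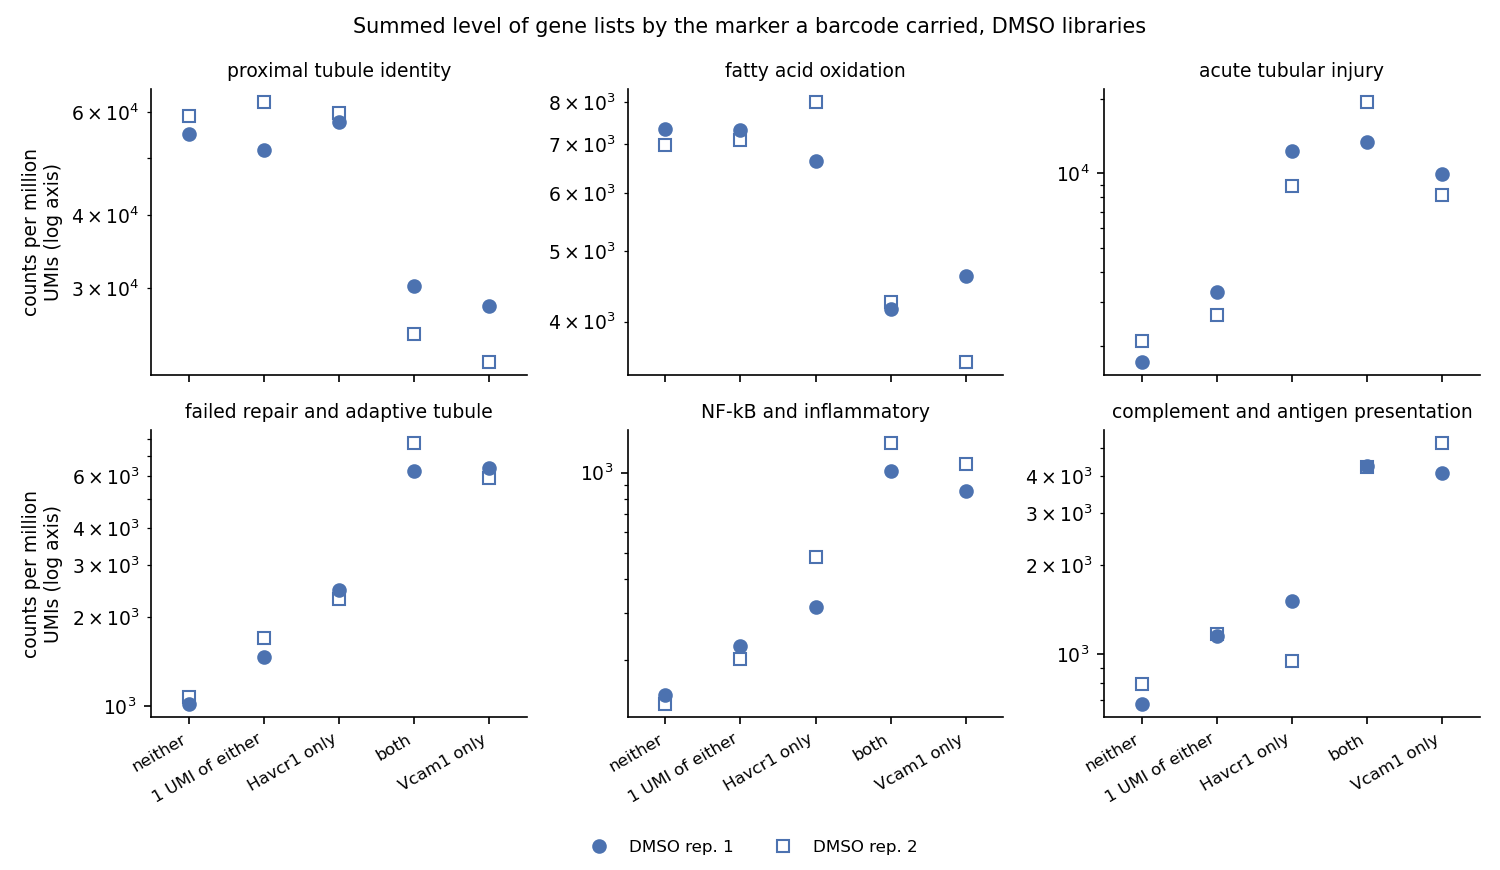
Summed level of 6 gene lists in CPM in the 2 DMSO libraries, for barcodes with neither Vcam1 nor Havcr1, with 1 UMI of either, and for members with Havcr1 alone, both or Vcam1 alone; points are libraries. Identity genes are lowest and failed-repair genes highest in members that carry Vcam1, alone or with Havcr1.

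Within the members, BPTES and DMSO were compared on the sums of 24 and 14 against 91 and 115 barcodes. Of 11096 genes 0 passed (0%; edgeR quasi-likelihood test, Benjamini-Hochberg adjustment), 748 were under 0.05 before adjustment, and DESeq2 passed 33. In counts simulated at these depths the same fit recovered 45 of 102 genes changed 4-fold and 1 of 97 changed 2-fold. The simulated counts had a single fixed dispersion for all genes and no added difference between libraries of a group. The spread of the real libraries was not matched, so these rates need not hold for the data. The groups overlapped for Il34 (100.1 and 203 against 215 and 187 CPM) and for Spp1 (3041 and 6917 against 7908 and 6613 CPM). Cp (958 and 943 against 551 and 585 CPM) and C3 (1164 and 956 against 453 and 309.7 CPM) were higher in both BPTES libraries than in either DMSO library, and neither passed. The fibroblast and mural list was highest in BPTES replicate 1 (6736 and 2346 CPM under BPTES, 1355 and 1828 CPM under DMSO), and its part in these values was not tested. The mix of marker transcripts differed as well. A Havcr1 UMI was present in 20.8% of the members of BPTES replicate 1 and 21.4% of those of replicate 2. For DMSO replicates 1 and 2 the figures were 59.3% and 38.3%. In the DMSO libraries Cp and C3 were lowest in members with Havcr1 alone, as given above. The part of this mix in the Cp and C3 values was not tested either.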

How the data were processed

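Kidney single-cell libraries (2 BPTES, 2 DMSO) were read as the deposited 10x matrices of raw UMI counts per gene and barcode, written with Cell Ranger 8.0.1 per the file headers; mm10 is the build in the submitters' processing notes. Barcodes needed at least 500 UMIs, 300 genes and at most 50% mitochondrial UMIs. Doublets were kept, and an alternative removed the highest Scrublet scores (scanpy 1.11.5, 0.4% per 1000 barcodes). The members, gene lists and tests were chosen with earlier results of these data known.

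Raw counts were summed per library and class and tested with edgeR 4.0.16 in R 4.3.3 (TMM, filterByExpr, robust quasi-likelihood fit, Benjamini-Hochberg over all genes, threshold 0.05). The 9 genes of the rule were left out of tests. CPM values of genes are TMM-scaled, except those of members split by marker transcript. The latter and the CPM values of lists are not. DESeq2 1.42.0, RLE scaling, no count filter, other gates and leaving out libraries were alternatives. The strict gates, the T cell and thick ascending limb comparison and the class-by-treatment interaction were chosen after seeing the data. Shares have exact binomial intervals (Clopper-Pearson). The fits were tested on simulated data.

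Of each of 19 lists, up to 3 called genes with the largest rise or fall and up to 3 with the highest mean could be named, plus 28 fixed genes and the 12 largest rises and falls overall among genes whose mean log2 CPM reached 5. The symbols Ccn1, Ccn2 and G6pc1 had no match. Results of a few genes are not reported here.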

Additional observations from a re-analysis of the deposited data

Results flagged for a closer look

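Among the genes open to naming, 8 differed in the size of their rise in injured barcodes between the treatment groups, tested as the class-by-treatment interaction in a fit blocked by library (edgeR quasi-likelihood test, 35 of 16837 genes called, 0.208%). With a single library left out the count became 20 or 132 (first or second BPTES library) and 121 or 144 (first or second DMSO library). The test was added after the data were seen. A positive value means that the injured-minus-other difference on the log2 scale was larger under BPTES.

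Ceruloplasmin (Cp) had an interaction of 1.71. Members held 958 and 943 CPM under BPTES and 551 and 585 CPM under DMSO, and the others 6.46, 5.97, 8.65 and 16.9 CPM. It lay between 1.26 and 2.18 when single libraries were left out and did not pass without BPTES replicate 1 (edgeR adjusted p 0.286), BPTES replicate 2 (0.252) or DMSO replicate 2 (0.162). With stromal genes at 0 it was 1.84 and passed. Members with Vcam1 alone were 19 of 24 and 11 of 14 under BPTES and 37 of 91 and 71 of 115 under DMSO. In the DMSO libraries Cp was far lower with Havcr1 alone than with Vcam1 alone, and the part of this mix in the interaction was not tested.

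The regeneration factor Sox9 had an interaction of 2.55. Its level in members overlapped between the groups, while in the other proximal tubule barcodes it was 0.431 and 0.547 CPM under BPTES and 1.85 and 4.38 CPM under DMSO, so the groups differed in the reference. Leaving out single libraries gave 2.13 to 2.96, without a pass when DMSO replicate 2 was left out (adjusted p 0.0546).

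Complement C3 had an interaction of 2.85, with 1164 and 956 CPM under BPTES and 453 and 309.7 CPM under DMSO in members and 7.92, 8.41, 19.2 and 22.7 CPM in the others. With stromal genes at 0 it was 2.13 and did not pass (adjusted p 0.538), and without BPTES replicate 1 it was 2.66 and did not pass (0.101). The other left-out libraries gave 2.46 to 3.28, all past the threshold. Fibroblast transcripts in members were highest in BPTES replicate 1, and their part in the value was not tested, nor was that of the mix of marker transcripts.

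Of the other 5 genes, Col1a2, Loxl1, Cyp1b1 and Sparc are known from fibroblasts or their matrix, and Cygb encodes cytoglobin, a globin of stromal cells. Col1a2 had an interaction of 3.75, Cyp1b1 4.79, Loxl1 3.06, Cygb 3.17 and Sparc 1.45 (edgeR adjusted p 9.1e-06, 0.0059, 0.00525, 0.00585 and 0.0285). Col1a2 was at 973, 227, 206 and 393 CPM in members and 0.731, 0.231, 1.98 and 5.17 CPM in the others, and Sparc at 1392, 770.0, 494 and 741 CPM and 20.8, 17.6, 25.8 and 36.1 CPM. Without BPTES replicate 1 Cyp1b1 (4.03), Loxl1 (2.60), Cygb (2.02) and Sparc (1.14) did not pass (edgeR adjusted p 0.0516, 0.187, 0.303 and 0.141), and Sparc did not without DMSO replicate 1 (1.44, adjusted p 0.0638). With stromal genes at 0, Cyp1b1 (5.05) and Loxl1 (3.26) did not pass (adjusted p 0.0822 and 0.704), and Sparc (1.89) did.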

How the results depend on the processing

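The share of injured barcodes, -2.82 as log2 of BPTES over DMSO, kept its direction in every alternative, with -3.94 for at least 2 Havcr1 UMIs. It was -4.78 after thinning to 3000 UMIs with the limits applied to the thinned counts (2 and 1 barcodes under BPTES, 42 and 31 under DMSO). Leaving out single libraries gave -3.26 to -2.48. Genes called between injured and other barcodes numbered 4899, 2693 with at least 2 Havcr1 UMIs, 2004 under the strict gates and 3944 to 4597 with single libraries left out. Of the genes tested in both, 3197 of 4243 were also called, in the same direction, with the leukocyte-free reference (150 in the opposite one), and 1542 of 3683 under the strict gates (35 opposite). Within injured barcodes, BPTES against DMSO gave 0 calls, against 3 with at least 10 UMIs of Lrp2 and Slc34a1, 4 with stromal genes at 0, 33 with DESeq2, 510 without the low-count filter, and 0 to 89 with single libraries left out, where the lone library is assumed to vary like the other group. 89 was the count without BPTES replicate 2, 7 that without BPTES replicate 1 and 2 that without DMSO replicate 2. The fit with the replicate number as a block gave 0 calls. The numbers are not known to pair libraries, and same-numbered libraries had a correlation of -0.07 in their deviations over 11096 genes. The comparison of Havcr1 with Vcam1 members and the strict gates for BPTES against DMSO were not run, because 2 libraries held 10 members of each kind, where 3 were asked for, and 1 BPTES library held 10 members.

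For 28 fixed genes, 481 of 559 values kept their direction and their side of the threshold, 39 lost the call, 22 gained it and 17 changed sign. Cd24a, at about 0 with the rule's reference, was 0.13 with at least 3 UMIs of Vcam1 and Havcr1, 0.12 with at least 2 of Vcam1, 0.83 with at least 2 of Havcr1, 1.69 with at least 10 of Lrp2 and Slc34a1, 0.15 with stromal genes at 0, 1.22 with the leukocyte-free reference, 0.44 in the members' depth range, 1.73 under the strict gates, 0.43 without the library block and 0.010 with RLE size factors, and -0.64 to 0.31 with single libraries left out. Clu was -0.15 with at least 2 Havcr1 UMIs and -0.23 (without BPTES replicate 2) to 1.10 (without DMSO replicate 2) with single libraries left out. Cd74 was 2.14 with the leukocyte-free reference and 2.71 under the strict gates. The cause of these changes was not tested, except that the leukocyte-free reference differs by its gates alone. The BPTES values rest on 38 members.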
